A study of Mus musculus with 4 samples.

Results

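Pericytes, the mural cells wrapped around capillaries, were picked out of 4 droplet single-cell RNA libraries of mouse heart by the genes they transcribed. A cell counted as a pericyte when at least 3 of the 6 markers Rgs5, Kcnj8, Vtn, Colec11, Abcc9 and Higd1b had a UMI (unique molecular identifier, the tag of 1 captured RNA molecule). It also had to hold no UMI of Myh11, the smooth muscle myosin, and at most 2 UMIs of the fibroblast genes Pdgfra, Dpt and Lum together. Cells entered only with 500 or more genes, 1000 or more UMIs and no more than 10% of UMIs from mitochondrial genes. The rule found 1039 pericytes among 30454 kept cells. The members were thus chosen by their own UMI counts, so the levels of its 10 genes and every difference between pericytes and other cells are descriptions, given without a test.

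The study described how mixed the mesenchymal progenitor population of the heart is. All animals were C57BL/6 mice. The undamaged tdTomato library held Hic1 CreERT2 tdTomato+ cells of 3 pooled hearts, and the ligated tdTomato library held cells of the same genotype from 3 pooled hearts taken 7 days after ligation of the left anterior descending (LAD) coronary artery, a model of myocardial infarction. The citrine library held Hic1 Citrine+ cells of 3 undamaged hearts, each marked with a hashtag (an oligonucleotide carried on an antibody to MHC class I). The fourth library held PDGFRa H2BGFP+ cells of strain B6.129S4-Pdgfratm11(EGFP)Sor/J from 2 undamaged and 2 ligated hearts, and its hashtags carry no condition in the labels. In the tdTomato mice an inducible Cre recombinase made under the Hic1 gene switches on a lasting red label, so only cells that used Hic1 when Cre was induced, and their descendants, are seen. The timing of induction and the age and sex of the mice are not given in the sources used here. Each group was 1 library, so p-values were not computed and the 95% intervals below cover counting error only; no spread between hearts is known for the tdTomato libraries.

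Pericytes share a basement membrane with the endothelium and are held there by PDGF-B, which endothelial cells secrete and the receptor PDGFRβ (Pdgfrb) binds. They also receive Notch signals through Notch3. Heart pericytes carry an ATP-sensitive potassium channel made of the pore Kir6.1 (Kcnj8) and the sulfonylurea receptor SUR2 (Abcc9), and Rgs5, a brake on G protein signalling, is a standard marker of mural cells. Hic1 encodes a transcriptional repressor found in mesenchymal cells of several tissues.

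The deposited matrices held 2853, 4292, 11338 and 13830 cell barcodes for the tdTomato libraries (undamaged, then ligated), the citrine and the PDGFRa library, of which 2786, 4263, 10838 and 12567 were kept. Depth was not alike. The shallowest kept cell had 1000 UMIs in the undamaged and 1510 in the ligated tdTomato library, so the ligated library held no cell in a range where 73 of the 173 undamaged pericytes (42.2%) lay. Pericytes were shallower than their neighbours, with a median of 1570 UMIs against 3557 in other undamaged tdTomato cells, 2208 against 3933 after ligation, and 2478 against 8124 in the citrine library. Summed over cells, pericyte profiles rested on 281598, 1970256 and 383820 UMIs. The median mitochondrial share of pericytes was 3.65%, 3.66% and 4.57%. The tdTomato libraries had 8 kept barcodes in common, 1 of them borne by a pericyte, and the citrine and PDGFRa libraries had 35, none of a pericyte.

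Pericytes took a larger share of the ligated than of the undamaged tdTomato library. They were 173 of 2786 kept cells before damage (6.21%, exact binomial 95% interval 5.34 to 7.17) and 732 of 4263 after ligation (17.2%, 16.1 to 18.3), a ratio of 2.77. The ratio lay between 2.34 and 3.13 under every other form of the rule tried at the same depth limit, and it was 2.89 when each cell was thinned to 1000 UMIs. It was larger where shallow cells were left out, at 4.45 (3.86% against 17.2%) with at least 1510 UMIs in both libraries and 11.6 (1.01% against 11.8%) with at least 2000 UMIs. The part of sorting, capture and depth in this difference was not tested, and a share in a sort is not a number of pericytes per heart.

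The citrine library held 134 pericytes (1.24%, 1.04 to 1.46), and they were unevenly spread over its 3 hearts. A cell was given to a heart when 1 hashtag had at least 10 UMIs and at least 70% of the cell's hashtag UMIs. Heart 1 had 8 pericytes of 1293 cells (0.619%, 0.268 to 1.22), heart 2 had 121 of 3177 (3.81%, 3.17 to 4.53) and heart 3 had 5 of 2263 (0.221%, 0.0718 to 0.515). Heart 2 thus supplied 90.3% of the citrine pericytes but 47.2% of the cells given to a heart. The mean over hearts was 1.55% ± 1.97 (SD, n = 3), and without heart 2 it was 0.42%. These shares leave out 37.9% of kept cells, which had no clear hashtag, and no pericyte. When at least 90% of hashtag UMIs were asked for, heart 1 had 1.67%, heart 2 5.79% and heart 3 0.437%, a mean of 2.63% ± 2.80. Every citrine gene value below is therefore mostly a value of 1 heart. These are also the sole replicate values of a pericyte share in the series, and their spread is larger than their mean.

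No PDGFRa H2BGFP+ cell met the rule (0 of 12567, which allows a share of up to 0.0239%). In that library 56 cells had 3 or more of the 6 markers, and all 56 were put aside because they held more than 2 UMIs of Pdgfra, Dpt and Lum, with none removed by Myh11. In the tdTomato libraries the Myh11 limit was the main one. It removed 104 of 289 candidates before damage and 265 of 1078 after ligation, against 14 and 95 removed by the fibroblast genes, some cells by both. In the citrine library the fibroblast genes removed 143 of 305 candidates and Myh11 removed 44.

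**Figure D1:**
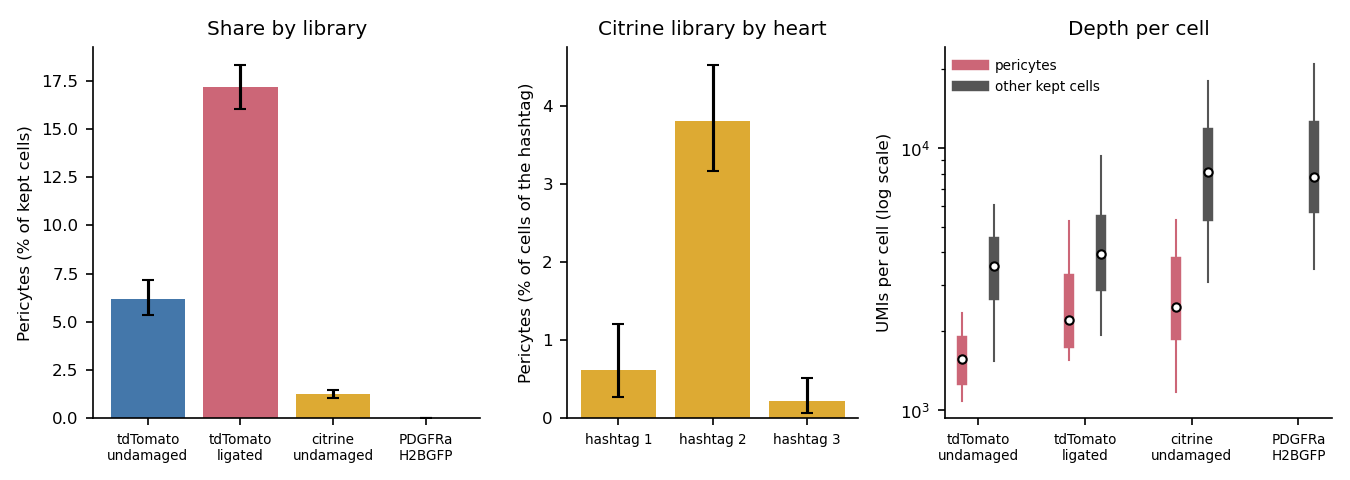
Pericytes by library. Left: share of kept cells (%) in each library with exact 95% binomial intervals. Middle: the same within the citrine library for each hashtag (heart). Right: UMIs per cell on a log axis, with the median (circle), quartiles (thick bar) and 5th to 95th percentile (line). The ligated tdTomato share of 17.2% stands over the 6.21% of the undamaged library, hashtag 2 stands over the other citrine hearts, and pericytes are shallower than other kept cells in the 3 libraries that hold them.

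Most pericytes carried far more than the minimum of markers. All 6 were detected in 59.5% of undamaged tdTomato, 76.1% of ligated tdTomato and 75.4% of citrine pericytes. Rgs5 stood at 13320, 12857 and 10281 CPM (UMIs of the gene in 1000000 UMIs of the pericytes) in these libraries, against 706, 1212 and 37 CPM in the other kept cells. The same order of libraries gave 3512, 3156 and 3309 CPM for Kcnj8, 1648, 1302 and 3246 CPM for Abcc9, 3452, 2262 and 2316 CPM for the adhesive plasma protein vitronectin (Vtn), 2528, 2330 and 2517 CPM for the lectin Colec11, and 1857, 1847 and 1316 CPM for Higd1b. Kcnj8 and Abcc9, which encode the pore and the receptor of the channel, are neighbours on mouse chromosome 6 (GRCm38, chr6:142564837-142571614 and chr6:142587862-142702315). Rgs5 (chr1:169655501-169695813) likewise lies close to Rgs4 (chr1:169741477-169747642), another regulator of G protein signalling that the rule did not use, at 1087, 585 and 776 CPM in pericytes and 39.8, 62.3 and 4.89 CPM in the other cells. These values are levels of 3' tags per gene and do not depend on transcript length in the way of whole-transcript reads.

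The edge of the rule was thin and looked different from its centre. Cells with just 3 markers numbered 7, 13 and 3 in the undamaged tdTomato, ligated tdTomato and citrine libraries. In the tdTomato libraries they were rich in the smooth muscle actin Acta2, at 7141 and 4357 CPM, against 595 and 616 CPM in pericytes with 4 to 6 markers. The 3 citrine cells had the fibroblast proteoglycan gene Dcn at 16815 CPM, against 666 CPM in those with 4 to 6 markers. Just outside the rule stood 8, 12 and 1 cells with 2 markers, 27, 96 and 17 cells kept out by 1 Myh11 UMI, and 3, 8 and 1 cells kept out by 3 fibroblast UMIs. The cells with 1 Myh11 UMI had Acta2 at 5489, 3164 and 944 CPM and still had Rgs5 at 16213, 15923 and 11469 CPM.

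The label was set beside genes the rule did not read, and they were high. The list of these genes was chosen with earlier results of these data known, so its counts are a description and no independent check. Of 25 pericyte identity genes outside the rule, 23 passed a filter of a mean of 50 CPM over pericytes and other cells in the undamaged tdTomato library, and 22 of these were over 2-fold higher in pericytes; over all 3216 genes that passed, 20.1% were. The counts were 21 of 21 in the ligated library (12% of 3085 genes) and 21 of 22 in the citrine library (15.3% of 3355 genes). Over all 25 members, those under the filter included, the ratio of pericytes to other cells had a median of 13.6 (range 1.87 to 92.7) before damage, 7.46 (1.28 to 36.1) after ligation and 26.0 (1.40 to 269) in the citrine library. Genes were called higher or lower throughout when the ratio of summed, scaled UMIs was over 2 or under 1/2, after adding 1 UMI to each sum.

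Among the receptors of this list, Pdgfrb stood at 1456, 1135 and 1391 CPM in undamaged tdTomato, ligated tdTomato and citrine pericytes, 13.6, 8.38 and 14.3 times the level of the other cells. Notch3 stood at 710, 656 and 784 CPM, and the NG2 proteoglycan gene Cspg4 at 366, 242 and 404 CPM. P2ry14, a receptor for UDP-sugars, was the gene with the highest rank in the undamaged library, at 590, 322 and 375 CPM in pericytes and 6.29, 8.88 and 1.39 CPM in other cells. It was followed by Art3, an ectoenzyme of the ADP-ribosyltransferase family, with ratios to other cells of 57.4, 26.5 and 55.6. The endothelin receptor Ednrb was at 121, 117 and 141 CPM against 1.99, 4.13 and 0.551 CPM. The metal reductase Steap4 was higher in level, at 1758, 1106 and 1352 CPM, with ratios of 31.4, 13.6 and 32.5. Ranking by the interval bound nearest to 1 also named Car2, Cpm, Esam, Lin7a, Cspg4, Tspan15, 4833422C13Rik, Ctsc, Serpini1, Rerg, Rgs4 and Nt5dc2 among the 20 highest, and all 20 were over 9-fold higher than the other cells in each of the 3 libraries.

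The 10 genes with the lowest pericyte level relative to the rest were Clec3b, Dcn, Apoe, Gsn, Mfap5, Ly6a, Smoc2, Htra3, Pi16 and Dpep1, several of which are known from fibroblasts. Dcn was at 330, 309 and 1073 CPM in pericytes against 25643, 16442 and 20839 CPM in other cells, and Gsn at 1126, 881 and 1170 CPM against 47534, 16664 and 28942 CPM. Apoe stood 52.1-fold and 20.7-fold below the other cells in the tdTomato libraries and 3.95-fold in the citrine library. The citrine values rested in part on single cells. The top citrine pericyte for each gene held 121 of 365 Apoe, 146 of 412 Dcn and 105 of 449 Gsn UMIs.

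**Figure D2:**
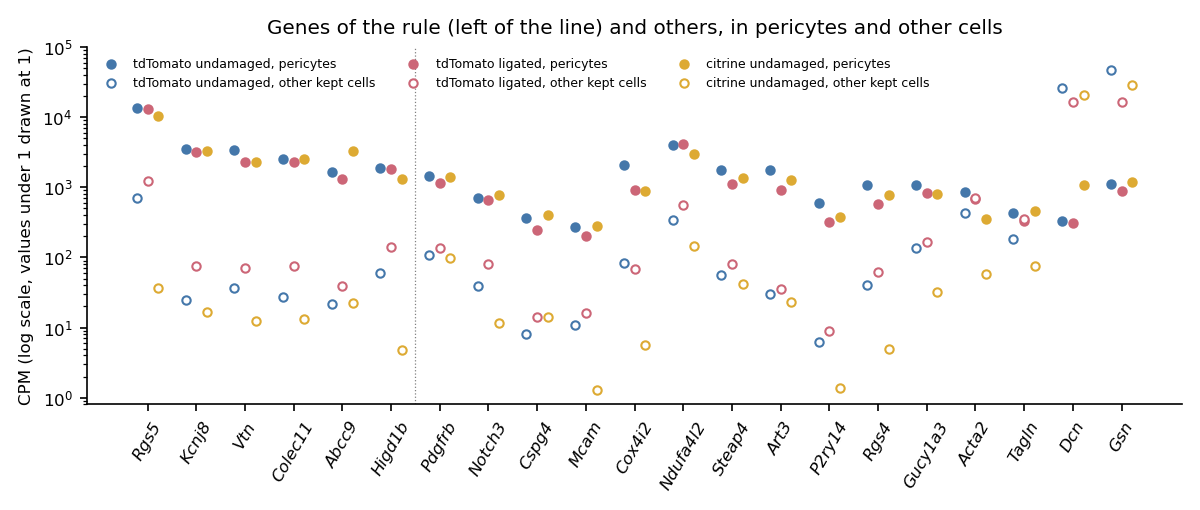
CPM on a log axis of marker genes in pericytes (filled) and other kept cells (open) of the 3 libraries that hold pericytes. Left of the dotted line are the 6 markers of the rule; to its right are genes the rule did not read. Identity genes are higher in pericytes in each library, Acta2 and Tagln of the ligated library lie close to the other cells, and Dcn and Gsn are lower.

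Ion channel and signalling lists showed the same contrast. Of 22 ion channel and transporter genes, 10 passed the filter in the undamaged library and 8 were over 2-fold higher in pericytes, where 20.1% of all genes tested were, among them the chloride channel Ano1 (178 CPM, 16-fold) and the sodium pump subunit Atp1b2 (313 CPM, 13.1-fold). Of 31 genes of G protein signalling and vasoactive receptors, 15 passed, 11 were higher and 2 lower. In the Notch list all 5 members that passed were higher, including the ligand Jag1 (128 CPM, 6.06-fold) and the target Heyl (366 CPM, 3.27-fold). By contrast 11 of 19 fibrillar matrix and activation genes and 14 of 20 immediate early genes were lower in undamaged pericytes, where 10.8% of all genes tested were. The counts were 14 of 21 and 18 of 20 in the ligated library (8.95% of all genes) and 12 of 17 and 3 of 18 in the citrine library (12%).

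Genes of most other cell types were scarce. Lymphocyte, neutrophil and epicardial markers were at 0 UMIs in all pericytes, macrophage and monocyte markers (8 genes) summed to 17.8, 8.63 and 10.4 CPM, and cardiomyocyte markers (8 genes) to 10.7, 50.3 and 31.3 CPM. Schwann cell markers (5 genes) summed to 28.4, 9.64 and 7.82 CPM, and erythroid markers (5 genes) had 2 UMIs in ligated pericytes and 0 in the others. Smooth muscle markers (8 genes, Myh11 among them at 0 by the rule) summed to 1793, 1496 and 1157 CPM against 802, 1290 and 182 CPM in other cells. Fibroblast markers (10 genes) summed to 2184, 2161 and 3080 CPM, against 82983, 41807 and 59075 CPM in other cells. Endothelial markers (11 genes) summed to 2440, 1860 and 3116 CPM, over the 302, 293 and 180 CPM of other cells. Most of that sum was Fabp4 (1598, 1216 and 2540 CPM), a fatty acid carrier, and Esam (792, 599 and 511 CPM), a junction protein. Of the 11 genes, 6 were detected in undamaged tdTomato pericytes, 10 after ligation and 7 in citrine pericytes. Besides Fabp4 and Esam, the undamaged tdTomato pericytes held UMIs of Pecam1, Egfl7, Emcn and Flt1. In these pericytes Cdh5, Kdr, Tie1, Cldn5 and Ly6c1 were at 0. Cldn5 alone was at 0 after ligation, and Cdh5, Tie1, Cldn5 and Ly6c1 were at 0 in citrine pericytes. The part of endothelial RNA in these values was not tested, and no doublet caller was run.

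The reporter and lineage genes were read at matched depth. After thinning to 1000 UMIs, 78.8% of undamaged and 87.1% of ligated tdTomato pericytes kept a tdTomato UMI, and no citrine pericyte had one even before thinning. A Hic1 UMI was left in 5.88% of undamaged (2.81 to 10.4) and 6.48% of ligated tdTomato pericytes (4.76 to 8.45), intervals that overlap, and in 49.8% (41.3 to 58.8) of citrine pericytes. Fibroblast-gene cells, meaning other kept cells with at least 3 UMIs of Pdgfra, Dpt and Lum and no Myh11 UMI (2367, 3003 and 10559 cells), gave 2.02%, 3.51% and 26.2%. Before thinning the Hic1 shares of pericytes were 9.83%, 14.3% and 76.9%. Free RNA can put a UMI in a cell that does not make it, and an Rgs5 UMI was left in 1.79%, 6.03% and 0.677% of thinned fibroblast-gene cells. Summed Hic1 was at 74.6, 61.4 and 737 CPM in pericytes, and the ligated to undamaged ratio was 0.79 (95% Poisson interval 0.52 to 1.38).

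Most genes differed by less than 2-fold between ligated and undamaged tdTomato pericytes, and a small set led by Il6, Serpine2 and Rgs16 stood higher after ligation. Of 3286 genes with a mean of at least 50 CPM over both tdTomato pericyte sums, 102 (3.1%) were over 2-fold higher in the ligated library and 94 (2.86%) over 2-fold lower, with a median log2 ratio of -0.12. The balance depends on the scaling: scaled to a median log2 ratio of 0, 140 were higher and 65 lower, and with ribosomal protein genes left out of the totals 138 and 85. In fibroblast-gene cells of the same libraries 51 of 2787 genes (1.83%) were higher and 32 (1.15%) lower, with a median log2 ratio of -0.01. Over all other kept cells, 47 of 2818 (1.67%) were higher and 32 (1.14%) lower. Pericyte sums are smaller, and the difference between these percentages was not tested. Because all cells of a library were processed together, the ratio in fibroblast-gene cells is given beside the pericyte ratio of most genes named; a gene that differs alike in both cannot be told apart from a difference between libraries.

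Il6, the interleukin that drives acute inflammation, ranked first. It was at 28.4 CPM in undamaged and 258 CPM in ligated tdTomato pericytes and 5.21 CPM in citrine pericytes, a ligated to undamaged ratio of 8.10 (4.58 to 21.2), where fibroblast-gene cells stood at 146 and 360 CPM (2.47). The UMIs came from few cells, 4 before damage and 64 after ligation, with up to 54 in 1 cell, so the Poisson interval is too narrow; without the top cell of each library the ratio was 13.0. The share of pericytes with an Il6 UMI after thinning was 1.63% (0.359 to 4.98) and 5.33% (3.82 to 7.21), against 7.17% and 14.3% of fibroblast-gene cells. Ligated pericytes as a whole thus stayed below the fibroblast-gene cells in Il6.

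Serpine2 (protease nexin 1, a secreted inhibitor of thrombin and plasminogen activators) was spread over many more cells. It was at 316 CPM in undamaged tdTomato, 1755 CPM in ligated tdTomato and 310 CPM in citrine pericytes, a ratio of 5.49 (4.5 to 6.93). Both undamaged libraries were alike, and fibroblast-gene cells went from 552 to 672 CPM (1.22). A UMI was found in 60 of 173 and 440 of 732 pericytes, and after thinning in 25% (18.6 to 32.0) and 44.4% (40.8 to 48.1). Against the other cells of its library Serpine2 was 1.68-fold lower in pericytes before damage and 2.56-fold higher after ligation.

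Rgs16, a regulator that ends G protein signalling like Rgs5 and Rgs4, was at 32.0, 236 and 20.8 CPM in the same order, a ratio of 6.66 (3.86 to 16.3). It too sat in few cells, 3 before damage and 91 after ligation, and without the top cell of each library the ratio was 15.7. In fibroblast-gene cells it was far under the filter of 50 CPM, at 1.23 and 7.73 CPM, but likewise higher after ligation. For Rgs16 a difference between the libraries therefore cannot be told apart. The stromelysin-type metalloproteinase gene Mmp11 was at 28.4, 142 and 18.2 CPM (4.46, 2.5 to 11.7), and 1.21 in fibroblast-gene cells. Biglycan (Bgn), a matrix proteoglycan, was at 607, 1803 and 701 CPM (2.95, 2.55 to 3.48), and 1.5 in fibroblast-gene cells.

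The windows just upstream of these genes are shown because Il6, Serpine2 and Rgs16 had the 3 highest ranks, with Rgs5 as the marker that hardly differed. Each is the 250 bases before the RefSeq start (GRCm38.p6), written 5′ to 3′ on the gene's strand, with motif matches in capitals. They are Rgs5 (chr1:169655251-169655500, plus strand), Serpine2 (chr1:79858666-79858915, minus strand), Rgs16 (chr1:153740103-153740352, plus strand) and Il6 (chr5:30012864-30013113, plus strand).
Il6: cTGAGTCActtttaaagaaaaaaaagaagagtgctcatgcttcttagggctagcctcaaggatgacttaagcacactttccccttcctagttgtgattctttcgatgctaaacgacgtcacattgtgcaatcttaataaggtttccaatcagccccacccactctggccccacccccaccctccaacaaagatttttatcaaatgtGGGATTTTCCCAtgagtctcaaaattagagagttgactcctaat
Serpine2: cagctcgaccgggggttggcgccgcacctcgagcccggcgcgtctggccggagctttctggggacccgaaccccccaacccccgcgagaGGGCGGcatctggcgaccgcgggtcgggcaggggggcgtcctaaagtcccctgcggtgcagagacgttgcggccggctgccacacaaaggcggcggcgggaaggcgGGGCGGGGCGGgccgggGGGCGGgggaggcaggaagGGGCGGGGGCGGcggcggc
Rgs16: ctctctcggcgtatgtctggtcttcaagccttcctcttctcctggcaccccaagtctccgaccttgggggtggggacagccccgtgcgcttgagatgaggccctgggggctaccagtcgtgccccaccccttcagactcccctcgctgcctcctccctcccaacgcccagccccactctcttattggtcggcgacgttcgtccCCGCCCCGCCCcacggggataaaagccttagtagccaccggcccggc
Rgs5: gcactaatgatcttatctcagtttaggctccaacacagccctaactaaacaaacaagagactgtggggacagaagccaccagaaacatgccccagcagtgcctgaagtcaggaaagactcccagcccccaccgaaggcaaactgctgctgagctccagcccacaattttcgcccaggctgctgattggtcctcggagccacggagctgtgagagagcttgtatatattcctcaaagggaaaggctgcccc

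Both strands of each window were searched for NF-kB by its consensus, AP-1 (TGANTCA), CRE (TGACGTCA), RBPJ (TGGGAA), the GC box (GGGCGG), the TATA box (TATAAA) and the CArG box. The Il6 window held an NF-kB match ending 35 bases before the start, overlapped by an RBPJ match on the other strand, and an AP-1 match beginning 249 bases before it. Serpine2 held 6 GC boxes and Rgs16 held 2 overlapping ones; the Rgs5 window matched none of the 7. Among 32851 RefSeq windows of 250 bases, 1.41% held the NF-kB letters, 6.75% AP-1, 21.6% RBPJ and 32.7% a GC box. The shares for the remaining motifs were 1.55% for CRE, 12.4% for TATA and 1.47% for the CArG box. A match describes letters and is not evidence of binding.

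The other genes with the highest ranks also differed in the same direction in fibroblast-gene cells. The histone variant H2afj had ratios of 6.90 in pericytes and 5.28 in fibroblast-gene cells, Tpt1 (a growth-linked cytosolic protein) 3.11 and 2.64, Rsrp1 3.62 and 2.60, and the LIM protein gene Csrp2 3.33 and 2.61. Rpl12, Rps10 and Rps20, which encode ribosomal proteins, had 3.66 and 2.20, 2.88 and 1.95, and 2.80 and 1.76. The undamaged citrine level lay nearer to the ligated than to the undamaged tdTomato level for Tpt1 (1204, 3754 and 2850 CPM). It passed the ligated level for Rsrp1 (107, 398 and 498 CPM). Rps10 and Rps20 also lay nearer to the ligated level, with 501 and 543 UMIs among the 383820 UMIs of citrine pericytes. Tpt1, Rsrp1, Rps10 and Rps20 thus did not follow damage across all 3 libraries.

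Ribosomal protein genes as a whole were taken as a list after their values were seen. Of 83, 77 passed and 19 were over 2-fold higher after ligation (3.1% of all genes were), with a median log2 ratio of 0.80 in pericytes and 0.33 in fibroblast-gene cells. They held 7.30% of pericyte UMIs before damage and 12.5% after ligation, and 14.2% and 17.8% of those of other cells. In the opposite sense the nuclear RNA Malat1 was at 80778 CPM in undamaged and 49403 CPM in ligated pericytes (1.64-fold lower). It was 89125 CPM in citrine pericytes. The part of RNA quality in the pericyte ratios was not tested.

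**Figure D3:**
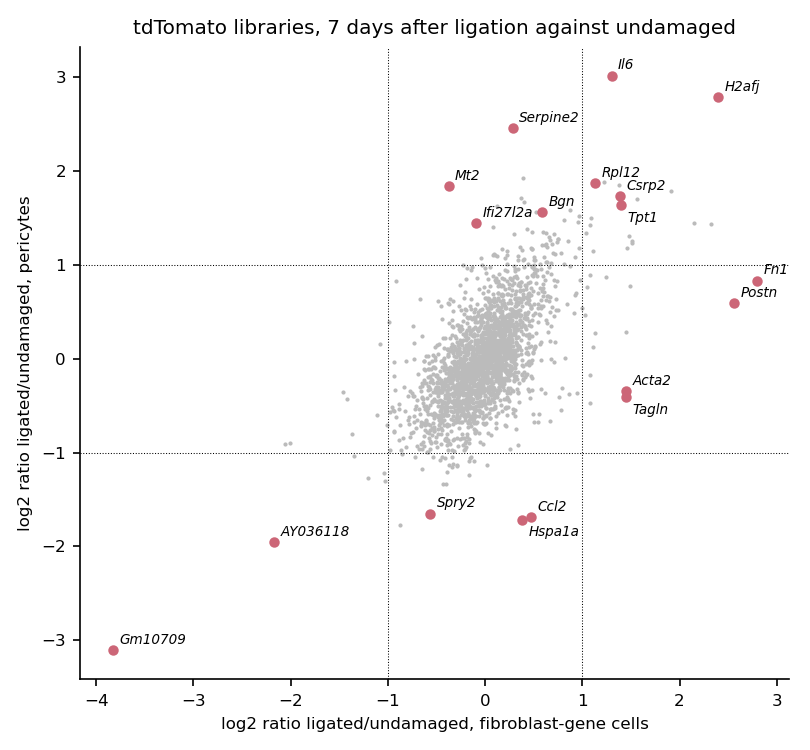
Log2 ratio of the ligated to the undamaged tdTomato library in fibroblast-gene cells (x axis) and pericytes (y axis), for 2342 genes that passed the filter in both; dotted lines mark 2-fold. Genes along the diagonal, such as H2afj and Gm10709, differed alike in both kinds of cell, Serpine2 and Mt2 differed in pericytes, and Fn1, Postn, Acta2 and Tagln differed more in fibroblast-gene cells.

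The 12 genes ranked lowest after ligation had mixed roles. Hspa1a, an inducible heat shock protein, was at 2244 CPM in undamaged, 683 CPM in ligated and 1469 CPM in citrine pericytes, 3.29-fold lower after ligation (2.98 to 3.61), while fibroblast-gene cells had 1.30 times the undamaged level. Cd36, the fatty acid transporter, was at 362, 129 and 104 CPM (2.83-fold lower, 2.21 to 3.55), so the citrine library stood with the ligated one, and fibroblast-gene cells had 1.00 and 1.41 CPM. Rasd1, a small G protein induced by glucocorticoids, was at 302, 51.8 and 96.4 CPM (5.84-fold lower, 4.32 to 7.85), with a ratio of 0.23 in fibroblast-gene cells. Its citrine level lay nearer to the ligated than to the undamaged tdTomato level. Spry2, a feedback inhibitor of receptor tyrosine kinases, was at 199, 64.0 and 300 CPM (3.14-fold lower, 2.23 to 4.29), with a ratio of 0.68 in fibroblast-gene cells. Rerg, a Ras-like gene that was itself among the genes highest in pericytes against other cells, was at 156, 36.0 and 190 CPM (4.37-fold lower, 2.91 to 6.40), with 0.25 in fibroblast-gene cells.

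The chemokine gene Ccl2 was at 163, 51.3 and 123 CPM, 3.22-fold lower after ligation (2.20 to 4.56), against a ratio of 1.39 in fibroblast-gene cells. This value rested on few cells. A single undamaged pericyte held 20 of the 46 UMIs, the difference was 2.13-fold without the top cell of each library, and it turned to a log2 ratio of 0.28 among cells with at least 2000 UMIs. Ddx18, Anxa11 and Mamdc2 were 3.41-, 3.65- and 3.79-fold lower, and lower in fibroblast-gene cells too (ratios of 0.55, 0.36 and 0.41). The unnamed transcripts Gm10709 (8.63-fold lower), Gm42726 (7.20-fold) and AY036118 (3.87-fold) had ratios of 0.07, 0.15 and 0.22 in fibroblast-gene cells. AY036118 was highest of all in citrine pericytes, at 3020 CPM against 604 and 156 CPM. Undamaged citrine pericytes held 8 UMIs of Anxa11, 4 of Mamdc2 and 0 of Gm10709 among 383820 UMIs, under the ligated level. These last genes thus did not follow damage across all 3 libraries.

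**Figure D4:**
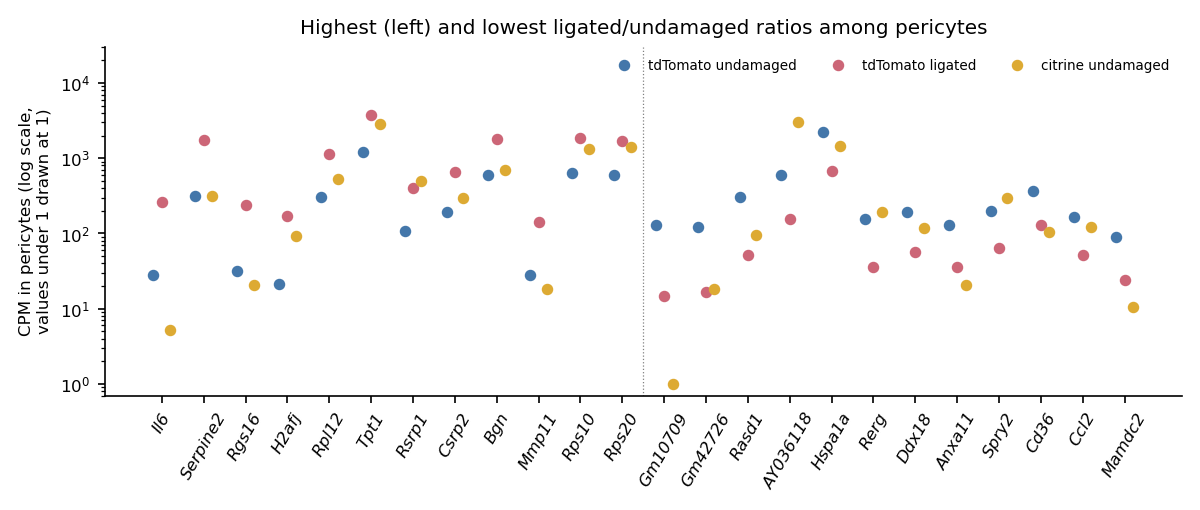
CPM on a log axis in pericytes of the 3 libraries for the 12 highest-ranked (left of the dotted line) and 12 lowest-ranked genes of the ligated to undamaged comparison; values under 1 are drawn at 1. Citrine values, from undamaged hearts, lie near the undamaged tdTomato values for Serpine2, Rgs16 and Mmp11. They lie near or beyond the ligated ones for Tpt1, Rsrp1, Rps10, Rps20, Cd36, Gm42726, Gm10709, Anxa11 and Mamdc2. On this axis the citrine values of H2afj and Rasd1 lie nearer to the ligated than to the undamaged tdTomato ones.

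Most pericyte identity genes differed by less than 2-fold after ligation. Of the 25, 24 passed the filter, 0 were over 2-fold higher and 2 were over 2-fold lower, where 2.86% of all genes were lower. The median log2 ratio was -0.46, against -0.12 over all genes tested in pericytes and 0.01 over the 7 members that passed in fibroblast-gene cells; 3 of the 24 were above 1. The 2 lower genes were Cox4i2, the cytochrome oxidase subunit linked to oxygen sensing (2053, 929 and 896 CPM; 2.21-fold lower, 2.01 to 2.43), and Anpep, aminopeptidase N (85.2, 40.6 and 59.9 CPM; 2.16-fold lower). Cox4i2 had a ratio of 0.42 in fibroblast-gene cells as well, at 36.3 and 15 CPM. In undamaged citrine pericytes Cox4i2 stood with the ligated level, so it did not follow damage across the libraries. Art3, P2ry14 and Rgs4 had ratios of 0.53, 0.54 and 0.54 and did not pass 2-fold. Des, the muscle filament desmin (440 and 483 CPM), Foxs1 (238 and 254 CPM) and Ndufa4l2 (4024 and 4190 CPM) had ratios of 1.09, 1.05 and 1.04. For Pdgfrb, Notch3 and Cspg4 the ratios were 0.78, 0.92 and 0.66. Car2, a carbonic anhydrase among the genes ranked highest in pericytes against other cells, had a ratio of 0.40.

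No contractile gene passed 2-fold in either direction. Of 20, 16 passed the filter, with a median log2 ratio of -0.18 in pericytes, which became 0.07 when at least 4 markers were required. Over the 10 members that passed in fibroblast-gene cells the median was 0.33. Acta2 was at 849, 672 and 352 CPM (ratio 0.79, 0.69 to 0.91). Its direction rested on the edge of the rule, since pericytes with 4 to 6 markers had 595 CPM before damage and 616 CPM after ligation, and without the top cell of each library the ratio was 0.90 (0.78 to 1.06). In Acta2 the fibroblast-gene cells went from 43.9 to 120 CPM (2.73). Tagln, another actin-binding gene of smooth muscle, was at 430, 325 and 461 CPM (0.75) against 2.73 in fibroblast-gene cells, but at 307 and 294 CPM in tdTomato pericytes with 4 to 6 markers, and its ratio was 0.89 (0.72 to 1.12) without the top cell of each library. The regulatory subunit gene Ppp1r14a had the highest ratio of the list, at 266 and 404 CPM (1.5), and Tpm2 followed at 1.21.

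A few matrix genes were over 2-fold higher after ligation. Of 25 fibrillar matrix and activation genes, 13 passed, 3 were over 2-fold higher (3.1% of all genes were) and 0 lower, and the median log2 ratio was 0.70; 9 of the 13 had a ratio above 1, and the lowest were Acta2 and Fap (63.9 and 48.7 CPM, 0.73). In fibroblast-gene cells 9 of 21 were higher and the median was 0.93. The 3 genes were Bgn, Ptn (the growth factor pleiotrophin, 35.5 and 106 CPM, 2.73, with 4.44 in fibroblast-gene cells) and Loxl2, a collagen crosslinking enzyme (71.0 and 167 CPM, 2.25, with 1.13). Col1a1, the fibrillar collagen chain, was at 139 and 262 CPM (1.85, with 2.11 in fibroblast-gene cells), and Col3a1 at 508 and 829 CPM (1.62, with 1.91). Postn (periostin) was at 494 and 748 CPM (1.51, 1.27 to 1.82) in pericytes and 196 and 1154 CPM (5.90) in fibroblast-gene cells. Fn1 (fibronectin) was at 213 and 385 CPM (1.78) against 6.95. Cthrc1, a gene of activated fibroblasts, had 1 UMI in undamaged and 22 UMIs in ligated pericytes, 3.55 and 11.2 CPM, where fibroblast-gene cells went from 3.79 to 404 CPM.

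Basement membrane genes mostly differed by less than 2-fold. Of 21, 11 passed, 1 was over 2-fold higher (3.1% of all genes were) and 0 lower. The median log2 ratio was 0.51 in pericytes and -0.14 over the 13 members that passed in fibroblast-gene cells. Nid1, the linker protein nidogen, was at 128 and 277 CPM (2.11, 1.54 to 3.12) against 0.97 in fibroblast-gene cells. Undamaged citrine pericytes held 106 Nid1 UMIs among 383820 UMIs, close to the ligated level. Nid1 thus did not follow damage across the libraries. The collagen IV chains Col4a1 and Col4a2 had ratios of 1.19 and 1.55, Sparc 1.5 and Sparcl1 1.43. The laminin chains Lama4, Lamb2 and Lama2 were below 1, with ratios of 0.73, 0.87 and 0.89.

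In the TGF-beta and BMP list 14 of 27 genes passed. Of these, 2 were over 2-fold higher and 2 lower, where 3.1% and 2.86% of all genes tested were. The median log2 ratio was -0.06 and changed sign in 3 of 13 alternatives. Serpine2, described above, was among the higher ones. Cyr61, a matricellular protein (529 and 241 CPM, 2.21-fold lower, with a ratio of 0.82 in fibroblast-gene cells), and the receptor Tgfbr3 (71.0 and 34.5 CPM, 2.13-fold lower, with 0.89) were the lower ones. Id3, an inhibitor of differentiation induced by BMP, was at 998 and 1726 CPM (1.72, with 0.83 in fibroblast-gene cells) and Id1 at 355 and 191 CPM (0.53, with 0.25).

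Inflammatory genes were few. Of 19 chemokines and cytokines 7 passed, with Il6 higher and Ccl2 lower, where 3.1% and 2.86% of all genes tested were. The median log2 ratio was 0.59, and 0.60 over the 13 members that passed in fibroblast-gene cells. Cxcl1, which draws neutrophils, was at 206 and 357 CPM (1.71) and at 1211 and 2503 CPM in fibroblast-gene cells (2.07). Cxcl12 was at 991, 769 and 430 CPM (0.77) and Il34, a ligand of the macrophage receptor Csf1r, at 199, 187 and 141 CPM (0.93). Cxcl10 had 0 UMIs in undamaged and 137 in ligated pericytes, which with 3 counts put in place of the 0 is at least 6.53-fold higher, but its mean was under the filter. Of 12 leucocyte adhesion genes 4 passed, and only Cd36 differed over 2-fold. In the interferon list 12 of 19 passed and 1 was higher, Ifi27l2a (128 and 358 CPM, 2.73), which had a ratio of 0.94 in fibroblast-gene cells; the median log2 ratio was 0.21.

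In the Notch list 7 of 13 passed and 1 was over 2-fold lower, where 2.86% of all genes tested were. It was the target Hes1 (78.1, 23.9 and 1000.5 CPM), 3.35-fold lower after ligation, with a ratio of 0.37 in fibroblast-gene cells. The receptor Notch3 and the target Heyl had ratios of 0.92 and 0.95, and the list median was -0.49 on the log2 scale. Only Pdgfrb and the ligand gene Pdgfa (188 and 200 CPM) of the 6 PDGF genes passed, and neither differed over 2-fold. The ligand gene Pdgfb had 4 and 7 UMIs. Of 22 ion channel genes 11 passed and 0 differed over 2-fold, with a median of -0.53. Of 31 genes of G protein signalling 16 passed, with Rgs16 higher (3.1% of all genes were), 0 lower and a median of -0.33. Rgs4 was at 1087 and 585 CPM and the G protein subunit Gng11 at 2770 and 2456 CPM.

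Angiogenic factors were mostly near the limit of detection, with 7 of 23 passing. Ptn was higher and Sema5a lower (139 and 60.4 CPM, 2.33-fold), where 3.1% and 2.86% of all genes tested were. Vegfa had 0 and 5 UMIs and Angpt1 0 and 1. The cell cycle list had 4 of 22 members over the filter and 0 past 2-fold. Mki67 had 0 UMIs in undamaged and 26 in ligated pericytes, and Cks2 0 and 127, on totals of 281598 and 1970256 UMIs. Both genes were under the filter, so the count past 2-fold leaves them out. Fewer undamaged cells limit what a 0 can show here, most of all for Mki67.

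Immediate early genes, which respond to tissue dissociation, had a median under 0 in pericytes and over 0 in fibroblast-gene cells. Of 22, 16 passed, 2 were over 2-fold higher and 0 lower, where 3.1% and 2.86% of all genes tested were. The median log2 ratio was -0.48 in pericytes and 0.23 over the 21 members that passed in fibroblast-gene cells. Fos was at 3143 and 2483 CPM (0.79) and Junb at 1385 and 1090 CPM (0.79), against 1.17 and 1.36. The 2 higher genes were Socs3, a feedback inhibitor of interleukin 6 signalling (114 and 314 CPM, 2.68; 2.11 in fibroblast-gene cells), and Ier3 (71.0 and 176 CPM, 2.36; 1.67). Of 18 heat shock genes 13 passed, with Hspb1 higher (32.0 and 95.9 CPM, 2.72, with 5.01 in fibroblast-gene cells) and Hspa1a and Hspa1b lower. The median was -0.17 in pericytes, 0.04 with at least 4 markers, and 0.32 over the 14 members that passed in fibroblast-gene cells. The part of cell isolation in these values was not tested.

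Metabolic lists differed little. Over all genes tested 3.1% were over 2-fold higher and 2.86% over 2-fold lower. Of 21 glycolysis and hypoxia genes 13 passed and 0 differed over 2-fold (median -0.17). Of 23 respiratory chain genes 20 passed, 0 were higher and Cox4i2 and Cycs, cytochrome c, were lower (median -0.11, which became 0.02 when the ratios were scaled to a median of 0). Of 17 metallothionein and antioxidant genes 14 passed and 2 were higher, the metal-binding Mt2 (39.1 and 152 CPM, 3.57, with 0.77 in fibroblast-gene cells) and the secreted peroxidase Gpx3 (74.6 and 241 CPM, 3.09, with 1.09). Of 16 lipid genes 7 passed, 0 were higher and 2 lower, Cd36 among them, and the median was -0.40; Fabp4 and Fabp5 had ratios of 0.76 and 0.84.

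**Figure D5:**
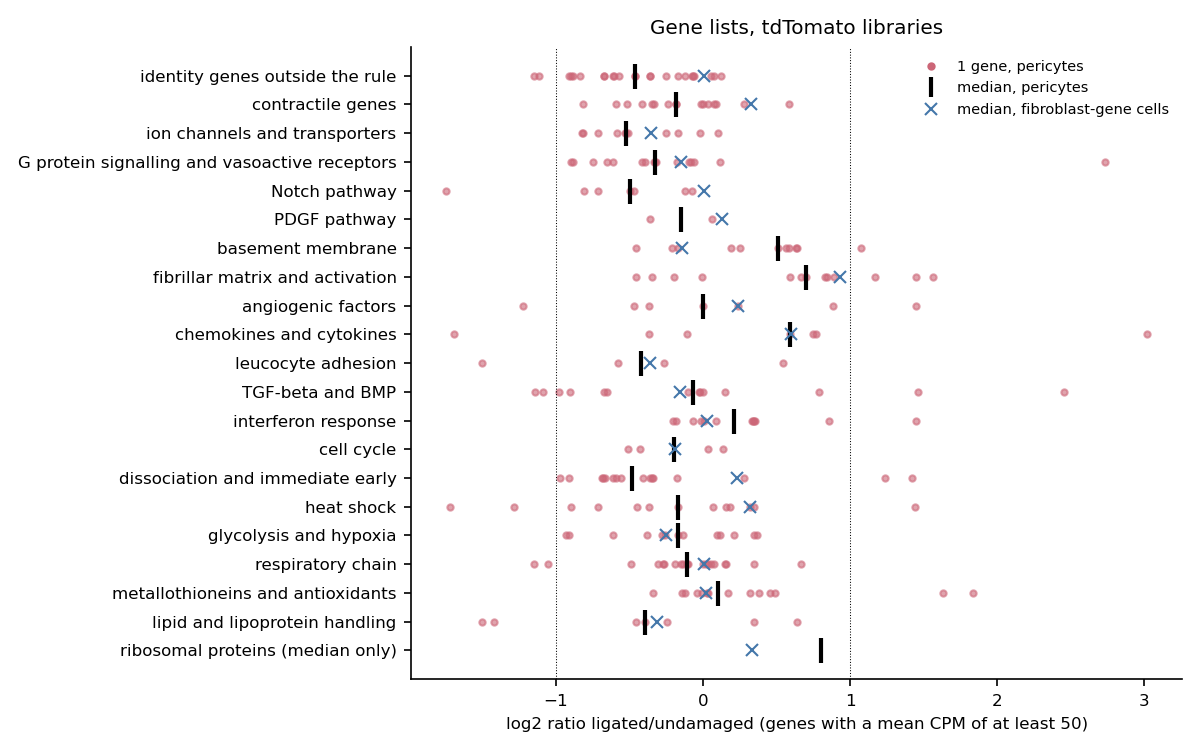
Log2 ratio of the ligated to the undamaged tdTomato library for the members of each gene list that passed the filter (points), with their median in pericytes (bar). Crosses are medians in fibroblast-gene cells, over the members that passed there, which can be another set. Dotted lines mark 2-fold, and for ribosomal proteins only the medians are drawn. Medians of the identity and immediate early lists lie left of the cross, and that of the basement membrane list lies right of it.

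Pericytes also differed among themselves. Variation was measured as the variance to mean ratio of UMIs after thinning each cell to 1000 UMIs, for which pure sampling gives about 1. Over 3160 genes in ligated pericytes the median was 1.01 and the 95th percentile 1.30. Malat1 had 9.36, Mgp (matrix Gla protein) 7.95, Fos 7.33, Il6 6.79, Cxcl1 5.04, Acta2 4.63, Gadd45g 4.22 and Serpine2 3.89. Igfbp5, Actb, Gsn, Junb, Rgs16, Gm12216 and Tagln followed, at 3.05 to 3.88, while the marker Rgs5 had 3.11.

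The concentration of UMIs in few cells also differed between genes. The 10% of ligated pericytes with the most UMIs of a gene held 92.4% of the thinned UMIs of Cxcl1, 79.0% of Acta2, 52.4% of Serpine2 and 20.1% of Rgs5. An Acta2 UMI was left in 19.4% of thinned ligated pericytes, 14.2% of undamaged tdTomato and 11.2% of citrine ones. For Serpine2 the variance to mean ratio was 1.12 in undamaged tdTomato and 1.70 in citrine pericytes. For Il6 the ratio was 2.13 in undamaged tdTomato pericytes, on 8 UMIs, and the 2 UMIs of citrine pericytes were too few for a ratio. Several of these genes also varied in undamaged pericytes. In the undamaged tdTomato and citrine libraries Fos had 11.2 and 9.99, Junb 7.75 and 7.19, Malat1 8.08 and 20.6, Mgp 5.53 and 5.46, and Acta2 7.09 and 6.76. Tagln had 3.76 and 19.3, and 1 citrine pericyte held 55 of the 177 Tagln UMIs of that library. Cells at the edge of the rule enter the Acta2 and Tagln values. The 7 undamaged tdTomato pericytes with just 3 markers had them at 7141 and 3479 CPM, against 595 and 307 CPM with 4 to 6 markers. The part of these edge cells in the variation was not tested. Gadd45g, a stress-induced gene, stood at 121 and 408 CPM in undamaged and ligated tdTomato pericytes (3.28, 2.40 to 4.91, with 1.29 in fibroblast-gene cells), and at 154 CPM in citrine ones. Igfbp5, which binds insulin-like growth factors, was at 607, 1084 and 951 CPM.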

How the data were processed

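Single-cell RNA was measured in 4 libraries (Chromium 3' v2, NextSeq 500, modified mm10, per the labels). The deposited matrices hold whole-number UMI counts, 1 row a gene and barcode, from the authors' Cell Ranger runs (3.0.2 per the file headers of the citrine and PDGFRa libraries); Seurat 2.1 is named in the submitters' processing notes. The 4 matrices share 28001 features, 3 of them reporters. Their counts were filtered and pericytes chosen as stated in the report, with no correction for doublets or free RNA. UMIs were summed over the pericytes of a library, 1 UMI was added, and ratios were scaled to the pericyte total. Ratios carry exact 95% Poisson intervals, shares exact Clopper-Pearson intervals; PCR and cell-to-cell spread are not covered. Genes needed a mean of 50 CPM. Shares at matched depth are expected values after thinning to 1000 UMIs. Their intervals take the expected number of cells rounded to a whole number, so for these shares they are approximate. Variation used 20 draws.

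The members, the 20 gene lists and the 11 cell type lists were chosen with earlier results of these data known. Genes named are the 12 highest and 12 lowest after ligation, the 20 highest and 10 lowest against other cells and the 15 most variable, ranked by the interval bound nearest to 1 (the most variable by the variance to mean ratio), leaving out the 10 rule genes, mitochondrial, reporter, hashtag and sex-linked marker genes; and from each list the 2 highest and 2 lowest members and those whose role is described. Cxcl10, Cthrc1, Gadd45g with its fold, Mki67 and Cks2, and the genes listed as differing from fibroblast-gene cells (Mt2, Ifi27l2a, Postn, Fn1), were singled out after their values were seen. Coordinates are GENCODE M21 and upstream windows RefSeq, both GRCm38. The ratio and interval code was tested on simulated counts. Python 3.11.15 with numpy 2.4.6, scipy 1.17.1, pandas 2.3.3 and matplotlib 3.10.9 was used. Alternatives tried are in the closing section. Some genes that the rule names are not reported here.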

Additional observations from a re-analysis of the deposited data

Results flagged for a closer look

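Hashtags were used only to assign citrine cells to hearts, and their counts differed between kinds of cell. Citrine pericytes held a median of 101 hashtag UMIs per cell and other kept cells of that library 29, although pericytes had fewer RNA UMIs (2478 against 8124). All 134 citrine pericytes could be given to a heart, while 4105 of the kept cells (37.9%) could not. Within heart 1, heart 2 and heart 3 the medians were 122, 102 and 81 in pericytes and 33, 48 and 31 in other cells. The antibodies bind MHC class I. RNA of its chains H2-K1 and H2-D1, looked up after these values were seen, was at 354 and 565 CPM in citrine pericytes, 0.57 and 0.61 times the level of the other cells.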

How the results depend on the processing

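Alternatives with at least 1510 UMIs, without limit on the fibroblast genes (for ratios), without pericytes over 2 times the median UMI total and without ribosomal genes in the totals were chosen after seeing the data. The undamaged tdTomato share was 9.87% with any Myh11, 1.01% at 2000 UMIs and 3.86% at 1510. The ligated share was 13.8% with no fibroblast UMI, 19.1% with no limit, 23.1% with any Myh11, 19.2% thinned and 11.8% at 2000 UMIs. The citrine share was 0.877%, 2.41%, 1.495% and 1.58% under the same first 4, 0.802% at 5% mitochondrial UMIs and 0.886% at 2000 UMIs. The PDGFRa share was 0.0318% with 2 markers and 0.446% with no limit. Higher and lower genes after ligation numbered 56 and 25 at 100 CPM (1733 genes tested) and 432 and 627 with no CPM filter (8424 tested); lower genes numbered 560 at 2000 UMIs, where 24 undamaged pericytes remain, and 149 at 1510. Against other cells, 278 undamaged genes were higher at 100 CPM, and 2906 and 1124 were higher and lower with no filter. The ligated counts were 187 and 173, then 1704 and 1454, and the citrine counts 254 and 267, then 4742 and 1339. The cause was not tested beyond the number of genes and cells. Of 24 named genes, 23 stayed past 2-fold in the same direction in all of the up to 15 alternatives; Ccl2 turned to 0.28 (log2) at 2000 UMIs. The mean over citrine hearts was 0.42% to 2.21% with 1 heart left out. No paired analysis was possible because each state is 1 library. List medians also changed sign for PDGF (3 alternatives), angiogenic (5) and lipid genes (at 2000 UMIs). Depth limits genes under about 50 CPM, most of all in the 173 undamaged pericytes.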
